A study of Homo sapiens with 4 samples.

Results

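The genes of glycolysis and of the hypoxia response were followed in the A375 human melanoma line with and without constructs that add or target MAGE-A1. They are 34 genes chosen by symbol: 2 glucose carriers, 16 glycolytic enzymes, 3 kinases that set the flow through the pathway, 2 lactate carriers, 9 other targets of the hypoxia-inducible factors (HIF) and the 2 HIF alpha subunit genes. All 34 symbols were found among the 23284 genes of the deposited files, and 0 were absent. MAGE-A1 is a cancer-testis antigen, a protein that is normally made in testis and that many tumours produce.

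Glycolysis turns glucose into pyruvate and yields ATP without oxygen, and many tumour lines, melanoma lines among them, run it at a high rate and export lactate. HIF is a pair of an oxygen-regulated alpha subunit and a stable partner. With oxygen present, prolyl hydroxylases mark the alpha subunit for degradation, so that alpha protein is set largely after translation, and RNA levels do not report it. When the alpha subunit accumulates, HIF binds short DNA motifs near its targets, which include most glycolytic genes together with genes for acid balance, mitochondrial turnover and collagen modification.

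All 4 libraries came from stably transfected A375 cells grown at 37°C in 5% CO2, and the labels name no hypoxia treatment. The vector library carried the empty pcDNA3 plasmid, and the overexpression library carried pcDNA3-MAGE-A1. The scramble library carried the pRNAT plasmid with a scramble hairpin, and the knockdown library carried pRNAT-shMAGE-A1, a hairpin against MAGE-A1. Whether a transfected line was 1 clone or a pool is not stated in the labels. Each group held 1 library, so the spread between replicates is unknown, p-values are not given, and every comparison is between libraries, not conditions. In such bulk RNA, fewer cells of a kind and less RNA per cell cannot be told apart.

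Levels are RPKM, reads scaled to transcript length and library size, and may be compared between genes. The log2 ratio of a gene is that of (RPKM + 1) between both libraries, given where the gene reached 1 RPKM in either, and it understates the change of low genes. The main pairs are overexpression with vector and knockdown with scramble. A gene counts as higher or lower when that ratio is 1 or more in size (2-fold). Of the 34 genes, 32 were measured in this sense, and CA12 and EGLN3 were below 1 RPKM in every library. Fold ratios of RPKM carry 95% exact intervals from estimated reads, which cover counting error only.

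Depth, estimated from steps in the low values, lay between 12640000 reads (overexpression) and 24530000 reads (vector). MAGEA1 was at 1.80 RPKM (vector), 126 (overexpression), 0.767 (scramble) and 0.473 (knockdown), so the overexpression label was borne out, while for the knockdown the fold against scramble of 0.616 had an interval of 0.285 to 1.29. Directions drawn from the library labelled knockdown rest on that label. Melanoma lineage markers reached 1 RPKM for 5 of 9 genes in each library (summed level 345 to 527 RPKM), led by SOX10, while PMEL and MLANA were below 1 RPKM everywhere and TYR was listed at 0 in 3 libraries. Summed fibroblast markers lay between 2.26 and 7.07 RPKM, leukocyte markers between 1.76 and 5.78, endothelial markers between 0.773 and 3.37 and keratinocyte markers between 17.2 and 33.3, the last mostly KRT10. Small RNA genes held 29.2% to 87.1% of the summed RPKM, with the highest shares in the overexpression and knockdown libraries, and their part in the ratios was tested by rescaling only.

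Because HIF reads DNA through a 5-base core, the promoters of the genes past 2-fold were searched for ACGTG and GCGTG on both strands in the 250 bases before the start site (RefSeq, GRCh38.p14). Of 10 genes past 2-fold in a main pair, 9 had a promoter in the table and 6 had a match. The 6 sites below show the match nearest the start in each gene's best-matched promoter, 5′ to 3′ on the gene's strand, with the core in capitals (a core written CACGT lies on the other strand).

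HK2: ctcgcggaccGCGTGtaggagacga
ALDOC: ccggaggagtCACGTagctctgcga
LDHA: tgggttcccgCACGTccgccggccc
CA9: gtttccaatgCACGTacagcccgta
EGLN1: gccgtggtgtACGTGcagagcgcgc
HIF1A: gctgagagcgGCGTGggctggggtg

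The HK2 site (chr2:74835090-74835114, plus strand) lies inside the gene of the GENCODE 29 annotation but in no exon, upstream of the RefSeq start used. The sites of ALDOC (chr17:28576909-28576933, minus strand), LDHA (chr11:18394480-18394504, plus), CA9 (chr9:35673900-35673924, plus) and EGLN1 (chr1:231422286-231422310, minus) overlap an annotated exon of that release on the same strand. The HIF1A site (chr14:61695299-61695323, plus) lies outside the annotated gene, 204 bases before the start. In the CA9 promoter the core begins 18 bases before the start, and it is the only match there.

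HK2, LDHA and ALDOC held several cores. The HK2 promoter (chr2:74834920-74835169, plus strand, GRCh38.p14) is shown in full because it had the most matches of these 6 genes and because HK2 was the 1 enzyme above its control in the overexpression pair and below it in the knockdown pair. It contains 6 matches, where each CACGTG counts once on each strand:

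HK2 promoter: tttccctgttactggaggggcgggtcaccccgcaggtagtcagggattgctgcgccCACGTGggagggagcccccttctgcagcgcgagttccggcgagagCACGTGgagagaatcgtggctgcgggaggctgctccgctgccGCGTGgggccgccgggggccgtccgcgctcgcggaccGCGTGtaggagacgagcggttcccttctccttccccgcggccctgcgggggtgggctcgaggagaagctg

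The core is short and common, so these counts need the background. A match stood in 43.2% of 35116 promoters in the table and in 58.6% of 58 promoters of the 34 genes, with 19 of 36 enzyme promoters (52.8%) and 6 of 8 promoters of other HIF targets (75%). Counted by gene, 26 of the 31 genes with a promoter had a match in at least 1 of them (83.9%), against 47.4% of 27305 genes in the table. A gene with more promoters has more chances of a match, and these 31 genes had 58 promoters, against 35116 for the 27305 genes. HK1 and PFKM, for example, had 7 promoters each, of which 1 had a match. SLC2A1, PGAM1, LDHB, EGLN3 and P4HA2 had no such letters in these windows. A match describes the sequence and is no evidence of binding.

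Where 4 levels are given without names, they follow the order vector, overexpression, scramble, knockdown. GAPDH, which oxidizes the triose phosphate, was the most abundant of all genes (rank 1) in every library, at 5880 RPKM (vector), 4392 (overexpression), 5667 (scramble) and 10235 (knockdown). ENO1, the main enolase, followed among the 34 genes at 927, 847, 1322 and 2003 RPKM in the same order. ALDOA, the main aldolase, was at 719, 448, 859 and 1632 RPKM, and these 3 genes were the most abundant of the set in all 4 libraries. Processed pseudogenes with near-identical sequence exist for several glycolytic genes, and the assignment of shared reads is not known. TPI1P3, for one, was at 3.25, 2.26, 4.15 and 5.68 RPKM. Together the 16 enzymes summed to 9312, 6929, 9733 and 16613 RPKM, or 2.47%, 1.65%, 2.48% and 2.94% of all RPKM outside small RNA genes. The enzyme total was thus lowest in the overexpression library and highest in the knockdown library on both scales, with GAPDH making up 58.2% to 63.4% of it.

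**Figure D1:**
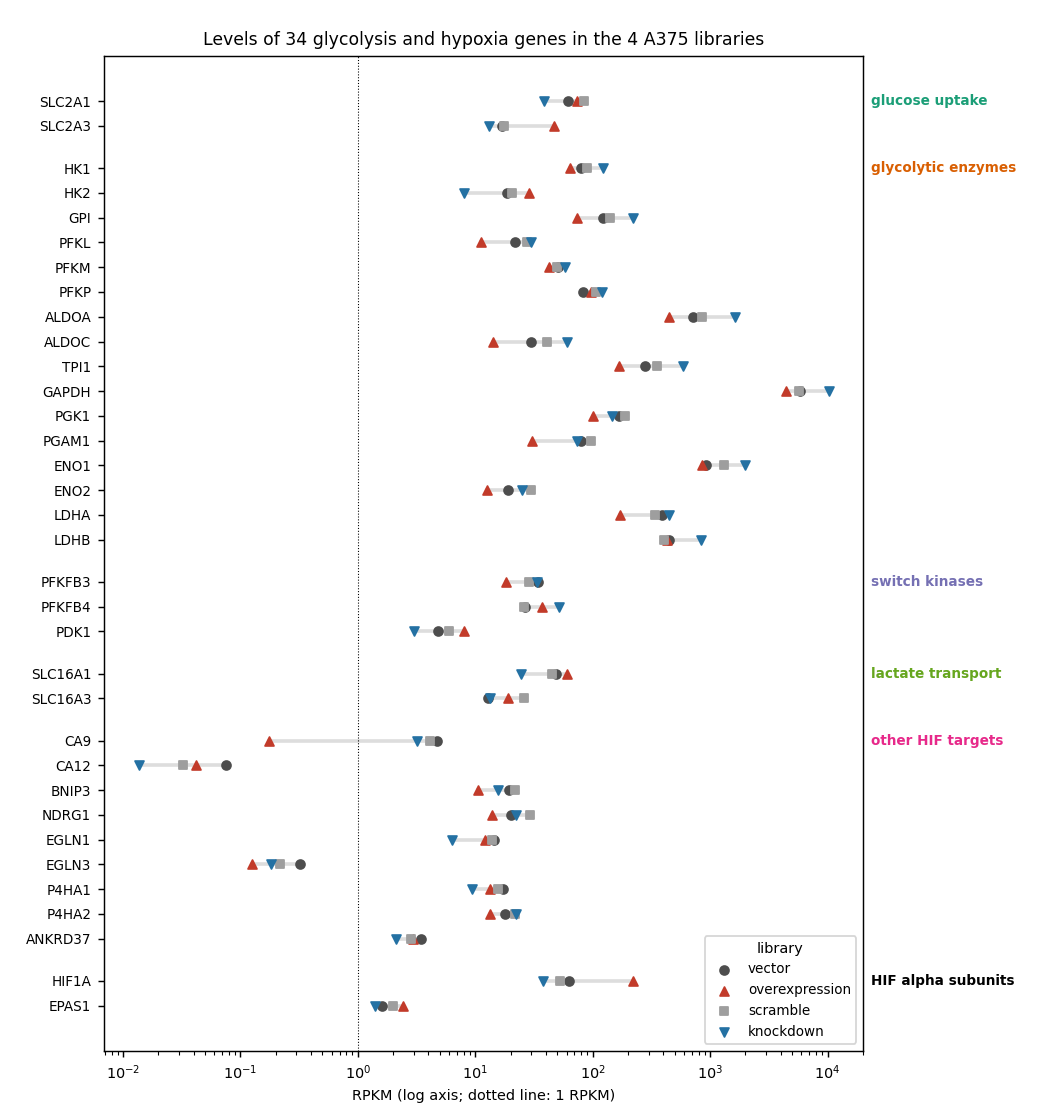
Level of each of the 34 genes in RPKM (log axis), 1 point for each of the 4 libraries, grouped by role, with a grey bar from the lowest to the highest library. GAPDH lies highest throughout, CA12 and EGLN3 lie left of the dotted 1 RPKM line in every library, and CA9 crosses it in the overexpression library alone.

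The first comparison asks how these genes differed between cells with added MAGE-A1 and cells with the empty vector. Glycolytic enzymes were mostly below their vector level, other HIF targets were all below it, and carriers of glucose and lactate and both HIF alpha genes were above it. Past 2-fold, SLC2A3 and HIF1A were higher and ALDOC, PGAM1, LDHA and CA9 were lower. These are 2 of 32 genes higher, where 10.6% of all 13577 measured genes were higher, and 4 of 32 lower, where 7.28% of all genes were lower. The median log2 ratio was -0.62 over the 16 enzymes, with 14 below 0, and -0.40 over the 7 measured HIF targets, with 7 below 0. Over all genes it was 0.02, with 48.4% below 0.

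PGAM1, the mutase that moves the phosphate of phosphoglycerate, was at 80.3 RPKM (vector), 30.4 (overexpression), 97.2 (scramble) and 73.7 (knockdown). Its level in the overexpression library was 0.378 of the vector level (95% interval 0.346 to 0.412), a log2 ratio of -1.38, and the other 3 libraries lay well above it. PGAM4, a near-identical copy listed as a gene of its own, stood at 18.7, 6.84, 19.6 and 12.2 RPKM. The copies share sequence, so how reads were split between them is uncertain, but both had their lowest level in the overexpression library.

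LDHA, the lactate dehydrogenase subunit that favours lactate formation, was at 392, 170, 339 and 444 RPKM in the same library order. Its fold was 0.434 (0.420 to 0.448), a log2 ratio of -1.20, which became -0.99 against the scramble library. LDHB, the subunit that prefers the reverse reaction, was at 444, 429, 404 and 840 RPKM. The overexpression library thus stood apart for LDHA and the knockdown library for LDHB. By RPKM, LDHB made up 53.1% of both subunits (vector), 71.7% (overexpression), 54.4% (scramble) and 65.4% (knockdown), so both MAGE-A1 libraries had the larger LDHB share, through a low LDHA in the former and a high LDHB in the latter. The knockdown log2 ratios over scramble were 1.05 (LDHB, 1538 nt) and 0.39 (LDHA, 2416 nt). They were 0.73 and 0.36 once a trend with transcript length and GC content was removed, so part of that larger share goes with length and GC content.

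ALDOC, the brain-type aldolase, was at 30.1, 14.2, 40.5 and 60.6 RPKM. Its log2 ratio in the overexpression pair was -1.03, and -0.89 once a trend with transcript length and GC content was removed. It held only 3.08% to 4.51% of the aldolase RPKM, and ALDOA held the rest.

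The other enzymes below vector level lay within 2-fold of it. Phosphoglucose isomerase GPI was at 122 RPKM (vector) and 73.9 RPKM (overexpression), triose phosphate isomerase TPI1 at 278 and 168, and PGK1, the first ATP-making kinase of the pathway, at 168 and 101. The liver-type phosphofructokinase PFKL was at 21.6 and 11.2 RPKM, the muscle type PFKM at 50.5 and 42.1, the hexokinase HK1 at 79.5 and 63.7, and the neuronal enolase ENO2 at 19.1 and 12.7. Log2 ratios of these 7 genes ran from -0.89 for PFKL to -0.26 for PFKM. The abundant ALDOA, GAPDH, ENO1 and LDHB had -0.68, -0.42, -0.13 and -0.05. Pyruvate kinase PKM, which is listed under its older symbol PKM2 and is no member of the set, was at 892, 489, 1005 and 1574 RPKM, a log2 ratio of -0.87.

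Only HK2 and PFKP among the 16 enzymes were above vector level. HK2, the inducible hexokinase that binds mitochondria, was at 18.6 RPKM (vector), 28.7 (overexpression), 20.4 (scramble) and 8.11 (knockdown). The overexpression library was its highest and the knockdown library its lowest, with the controls close together. PFKP, the platelet-type phosphofructokinase, was at 82.1, 97.6, 106 and 120 RPKM, and against the scramble library its overexpression ratio was -0.12. By RPKM, HK2 made up 18.9% of both hexokinases (vector), 31.1% (overexpression), 18.6% (scramble) and 6.18% (knockdown).

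In shares of estimated reads, HK2 held 25.5% of the hexokinase reads in vector cells (95% Clopper-Pearson interval 24.6% to 26.4%), 39.9% in the overexpression (38.5% to 41.2%), 25.1% in the scramble (24.1% to 26.1%) and 8.82% in the knockdown library (8.27% to 9.39%). Intervals of the controls overlapped each other and neither of the others. Phosphofructokinase also differed in makeup: PFKL held 14.0% of its RPKM (vector), 7.43% (overexpression), 15.0% (scramble) and 14.4% (knockdown), and PFKP was the major form everywhere, with 53.2% to 64.7%.

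**Figure D2:**
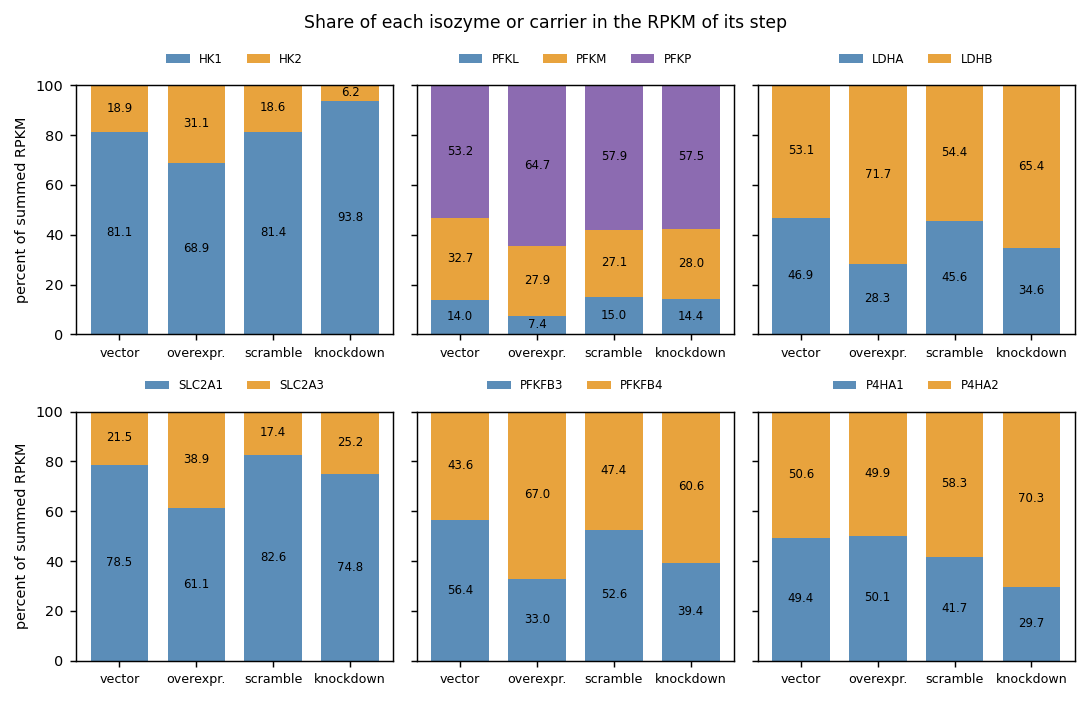
Share of each isozyme or carrier in the summed RPKM of its step, in percent, for 6 steps in the 4 libraries (stacked bars, 1 library each). HK2 runs from 6.18% in the knockdown to 31.1% in the overexpression library, and LDHB is larger in both MAGE-A1 libraries than in either control.

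Of the glucose carriers, SLC2A3 stood higher in the overexpression library than in both controls. SLC2A3, a high-affinity carrier best known from neurons, was at 17.0 RPKM (vector), 47.0 (overexpression), 17.7 (scramble) and 13.1 (knockdown). The overexpression library alone was high, with a fold of 2.76 over vector (2.60 to 2.93) and a log2 ratio of 1.41. Its near-copy SLC2A14, at 2.69, 5.62, 2.96 and 1.35 RPKM, also had its highest level there, and the split of reads between both is uncertain. SLC2A1, the carrier of most cultured cells, was at 62.1, 73.9, 84.2 and 38.8 RPKM, so its overexpression level lay between those of both controls.

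Among lactate carriers, SLC16A1 was at 49.1 RPKM (vector), 60.9 (overexpression), 45.2 (scramble) and 24.8 (knockdown), and was highest in the overexpression library. SLC16A3, the carrier linked to lactate export from glycolytic cells, was at 12.9, 19.0, 26.0 and 13.2 RPKM. Its controls differed by more than either main pair did, with a log2 ratio of scramble over vector of 0.95, and against the scramble library the overexpression ratio of SLC16A3 was -0.43 instead of 0.52.

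The 3 kinases that set flow through the pathway did not share a direction. PFKFB3, which makes the allosteric activator of phosphofructokinase, was at 34.1, 18.3, 28.8 and 33.3 RPKM in the same library order and was lowest with added MAGE-A1. Its relative PFKFB4, in which the reverse phosphatase activity is more prominent, was at 26.4, 37.2, 26.0 and 51.3 RPKM and was above its control in both pairs. PFKFB4 accordingly held 43.6%, 67.0%, 47.4% and 60.6% of the RPKM of both genes. PDK1, which blocks entry of pyruvate into the mitochondrial cycle, was at 4.83, 8.03, 6.03 and 3.00 RPKM, highest in the overexpression and lowest in the knockdown library.

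CA9, a cell-surface carbonic anhydrase that is among the most hypoxia-dependent HIF targets, was at 4.71 RPKM (vector), 0.175 (overexpression), 4.10 (scramble) and 3.20 (knockdown). These levels stand for an estimated 164, 3, 95 and 89 reads. The overexpression library was far below the other 3, and its RPKM fold over vector was 0.0372, with an interval from those reads of 0.00725 to 0.106. CA9 had the lowest log2 ratio of the 32 genes, -2.28 with the pseudocount of 1 and -4.13 with a pseudocount of 0.1.

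BNIP3, which drives removal of mitochondria, was at 19.5, 10.6, 21.9 and 15.7 RPKM, and NDRG1, a stress-induced HIF target, at 20.2, 14.0, 29.4 and 22.1 RPKM. Both were lowest in the overexpression library, with log2 ratios of -0.82 and -0.50. The prolyl hydroxylase EGLN1, which marks HIF alpha for degradation, was at 14.5, 12.1, 14.0 and 6.35 RPKM, so the overexpression library was near its control. P4HA1 and P4HA2, alpha subunits of the collagen prolyl hydroxylase, were at 17.4 and 17.8 RPKM (vector) and at 13.3 and 13.2 RPKM (overexpression), with log2 ratios of -0.37 and -0.40.

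ANKRD37, a small ankyrin-repeat protein, was at 3.47, 2.96, 2.86 and 2.12 RPKM. Its overexpression ratio was -0.17, and its fold interval of 0.582 to 1.20 included 1. The carbonic anhydrase CA12, at 0.0759, 0.0422, 0.0325 and 0.0136 RPKM, stood for at most 12 estimated reads in a library. EGLN3, a further prolyl hydroxylase of HIF alpha, was at 0.322, 0.125, 0.217 and 0.182 RPKM, or at most 21 reads. No ratio is read from either, and EGLN1 made up nearly all of the RPKM of both hydroxylase genes.

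HIF1A was at 63.3 RPKM (vector), 221 (overexpression), 52.2 (scramble) and 37.8 (knockdown). The overexpression library was above all others, and the fold over vector was 3.49 (3.38 to 3.61), a log2 ratio of 1.79 and the highest of the 32 genes. With the trend on length and GC content removed it was 1.59. HIF1A-AS2, an antisense gene at this locus, was at 0.963, 3.06, 0.443 and 3.30 RPKM, and since use of strand in counting is not stated, reads of both cannot be told apart. EPAS1, the other alpha subunit gene, was near the filter of 1 RPKM at 1.61, 2.45, 2.00 and 1.39 RPKM and held at most 3.68% of the RPKM of both alpha genes. The overexpression library thus combined the highest HIF1A RNA with all 7 measured genes of the other HIF target group below vector level. The wider set was split. Of all 32 measured members, 10 were above vector level and 22 below it, SLC2A3, HK2, PFKFB4 and PDK1 among the former. Of 27 further HIF targets, counted below, 15 were above and 12 below.

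The second comparison asks how the library labelled knockdown differed from its scramble control. Enzymes and other HIF targets parted here: 12 of 16 enzymes were above scramble level and 6 of 7 HIF targets were below it. Median log2 ratios were 0.42 for enzymes and -0.40 for HIF targets, against 0.06 over all 13569 measured genes, of which 47.5% were below 0. The sign of the enzyme median depended on scaling: it was 0.14 (9 of 16 above 0) with upper quartile scaling and -0.10 (7 of 16 above 0) with scaling to the sum without small RNA genes. Relative to the median of all genes, the enzymes stood at 0.37 as deposited and at 0.34 and 0.31 under those scalings, and the HIF targets at -0.45, -0.47 and -0.50.

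Past 2-fold, LDHB was the 1 member of 32 that was higher, where 12.4% of all genes were higher. SLC2A1, HK2 and EGLN1 were lower, 3 of 32, where 8.52% of all genes were lower. LDHB had a fold of 2.08 over scramble (2.03 to 2.13), a log2 ratio of 1.05 that lost the 2-fold mark under both scalings, at 0.77 and 0.53, and against the vector library, at 0.92. With the trend on length and GC content removed, LDHB was at 0.73. HK2 had a fold of 0.397 (0.367 to 0.431), a log2 ratio of -1.23. SLC2A1 had a fold of 0.461 (0.440 to 0.484), a log2 ratio of -1.10, which was -0.66 against the vector library. EGLN1 had a fold of 0.455 (0.418 to 0.494), a log2 ratio of -1.03, and -0.53 with the trend on length and GC content removed.

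Below the 2-fold mark on the higher side were ALDOA with a knockdown log2 ratio of 0.93, GAPDH with 0.85, TPI1 with 0.76, GPI with 0.63, ENO1 with 0.60, ALDOC with 0.57 and HK1 with 0.46. With the trend on length and GC content removed, ALDOA had 0.65, ENO1 0.38, GAPDH 0.28, TPI1 0.20 and ALDOC 0.09. GPI and HK1 then stood at 0.69 and 0.48. Knockdown levels were 123 RPKM for HK1, 220 for GPI and 593 for TPI1, against scramble levels of 89.1, 142 and 350. The phosphofructokinases were near scramble level, with PFKM at 0.24, PFKP at 0.18 (-0.14 with that trend removed) and PFKL at 0.13. Under scaling to the sum without small RNA genes these 3 were at -0.28, -0.35 and -0.39. Scaled in that way, ALDOA had 0.40, GAPDH 0.32, TPI1 0.23, GPI 0.10, ENO1 0.07, ALDOC 0.05 and HK1 -0.06. LDHA, at 0.39 as deposited, then had -0.14. Pyruvate kinase (PKM2) stood at 0.65 as deposited. The enzymes below scramble level besides HK2 were PGAM1 at -0.39, PGK1 at -0.37 and ENO2 at -0.25. Against the vector library ENO2 was at 0.36, and PGK1 was at -0.01 with the trend on length and GC content removed. As deposited, the middle of the pathway, from PGK1 to PGAM1, lay below its neighbours TPI1, GAPDH and ENO1 in this pair.

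Carriers were on the low side of the knockdown pair. SLC16A1 and SLC16A3 had folds of 0.548 (0.518 to 0.580) and 0.510 (0.474 to 0.548) over scramble, and SLC2A3 one of 0.740 (0.681 to 0.804). For SLC16A3 the knockdown level of 13.2 RPKM was yet close to the vector level of 12.9 RPKM. PDK1 had a log2 ratio of -0.81, which was -0.06 with the trend removed. PDK1 has the longest transcript of the 34 genes, at 14193 nt.

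HIF targets of the knockdown pair had lower levels for P4HA1, at 15.5 RPKM (scramble) and 9.41 RPKM (knockdown), with a log2 ratio of -0.67. Ratios were -0.45 for BNIP3, -0.40 for NDRG1, -0.31 for ANKRD37 and -0.28 for CA9. The fold intervals of ANKRD37 and CA9 over scramble each included 1, with that of CA9 at 0.578 to 1.05. For these genes a lower level than in the scramble library is thus not separated from counting error. Against the vector library NDRG1 had 0.12, and with the trend on length and GC content removed CA9 had -0.97. P4HA2 alone was above scramble level, at 21.7 and 22.3 RPKM, with a fold interval of 0.949 to 1.11 and with log2 ratios of -0.24 and -0.47 under the scalings named above. P4HA2 held 70.3% of the RPKM of both collagen hydroxylase subunits in the knockdown library, against 58.3% (scramble), 50.6% (vector) and 49.9% (overexpression). HIF1A and EPAS1 had log2 ratios of -0.46 and -0.32, which were -0.11 and -0.17 with the trend on length and GC content removed.

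In the knockdown pair the log2 ratio declined with transcript length across genes. The median was 0.64 over 2323 genes with transcripts up to 2000 nt and -0.43 over 3652 genes above 5000 nt. Spearman's rho between ratio and length was -0.49 across 12550 genes and -0.56 across the 16 enzymes, given as a description since genes share libraries and are not replicates. Median transcript length was 2658.5 nt for enzymes, 3066 nt for the measured HIF targets and 3621 nt for all genes. With a trend on length and GC content removed, the median was 0.22 for enzymes (11 of 16 above 0) and -0.54 for HIF targets (6 of 7 below 0). HK2, at 5772 nt, then had a ratio of -0.98, and PGAM1, at 1830 nt, one of -0.80, the lowest enzyme after HK2.

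**Figure D3:**
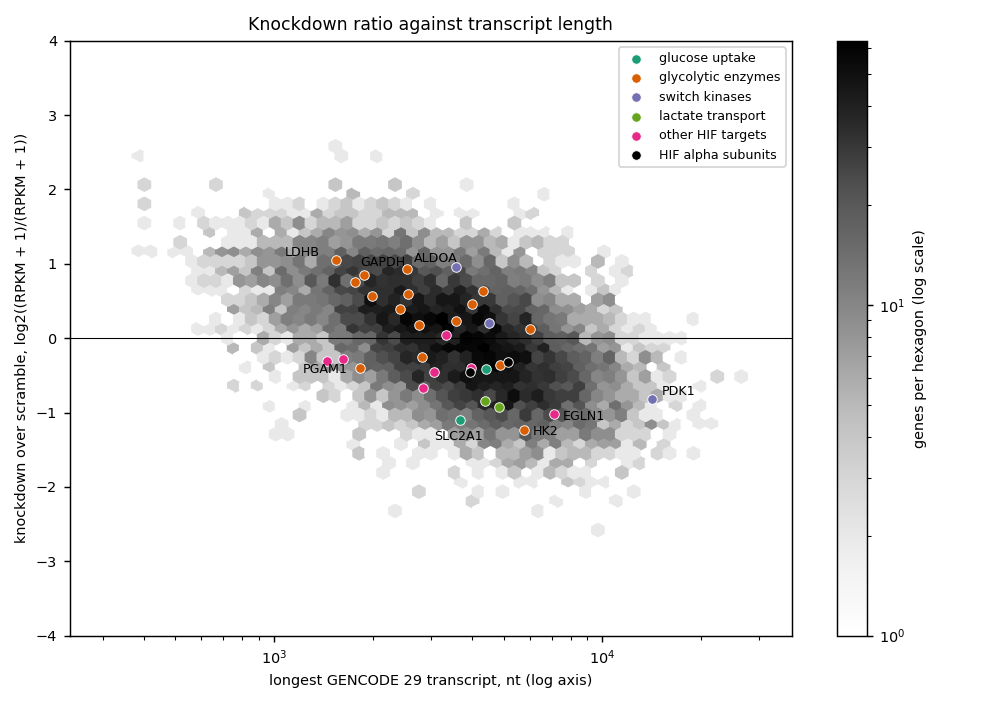
Knockdown over scramble log2 ratio against the length of the longest GENCODE 29 transcript in nt (log axis), with all measured genes as grey hexagons (darker for more genes) and the 32 measured members as coloured points by role. Ratios decline with length, and short enzymes such as LDHB and GAPDH lie at the top while PGAM1 and CA9, as short, lie below 0.

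Both pairs were set side by side. Of the 16 enzymes, 11 were below control in the overexpression pair and above control in the knockdown pair, where 24.8% of 13106 genes measured in both pairs did so. Under scaling to the sum without small RNA genes this knockdown side is lost for several of them, since only 7 of 16 enzymes then stood above scramble level. Among HIF targets, 6 of 7 were below control in both pairs, against 24.1% of all genes, and the remaining one was P4HA2. With the controls exchanged, 4 of 7 HIF targets were below control in both pairs, since NDRG1 was then at 0.12 in the knockdown pair and ANKRD37 at 0.04 in the overexpression pair, while 12 of 16 enzymes were below control with added MAGE-A1 and above it in the knockdown library. Both glucose carriers, both lactate carriers and both HIF alpha genes were above control with added MAGE-A1 and below it in the knockdown library, as were HK2 and PDK1. These are 8 of 32 members, or 25%, a share near the 24.2% of all genes. SLC2A1 and SLC16A3 left that pattern when the controls were exchanged, at overexpression ratios of -0.19 and -0.43 against scramble.

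**Figure D4:**
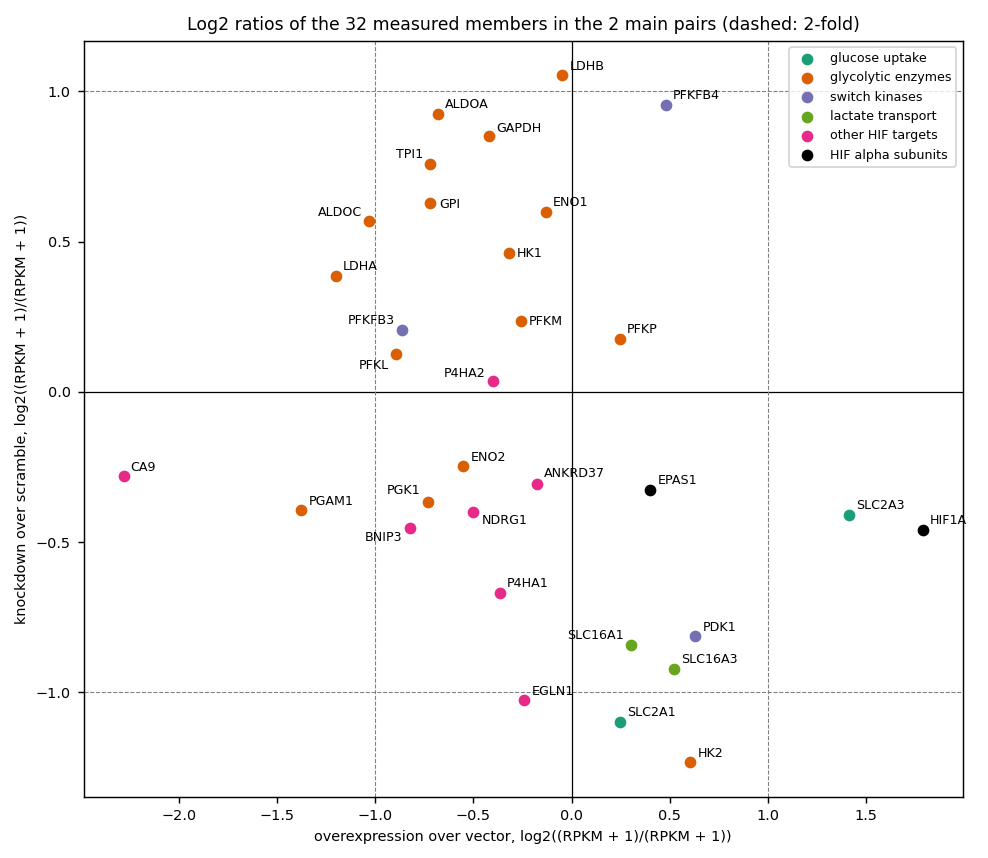
Log2 ratio of overexpression over vector (x axis) against log2 ratio of knockdown over scramble (y axis) for the 32 measured members, 1 point per gene, coloured by role, with dashed lines at 2-fold. Most enzymes lie in the upper left, HIF targets in the lower left and carriers with HIF1A, EPAS1, HK2 and PDK1 in the lower right. With scaling to the sum without small RNA genes, 9 of 16 enzymes lie below 0 on the y axis.

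Vector and scramble libraries both lack a MAGE-A1 construct. They are 1 library each on different plasmids, so their difference does not give the spread that applies to the main pairs. Small RNA genes held 46.1% (vector) and 29.2% (scramble) of the summed RPKM, against 87.1% (overexpression) and 77.7% (knockdown). Between scramble and vector, 0 of 32 members were 2-fold higher and 0 lower, where 0.893% and 1.79% of all 13326 genes were. Yet 12 of 16 enzymes were above vector level in the scramble library, with a median log2 ratio of 0.23, while HIF targets had a median of -0.05 and all genes one of -0.02. ENO2, with a log2 ratio of 0.61, ENO1, with 0.51, and NDRG1, with 0.52, differed most after SLC16A3. The enzyme median between controls, 0.23, was thus on the same side as the 0.42 of the knockdown pair.

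**Figure D5:**
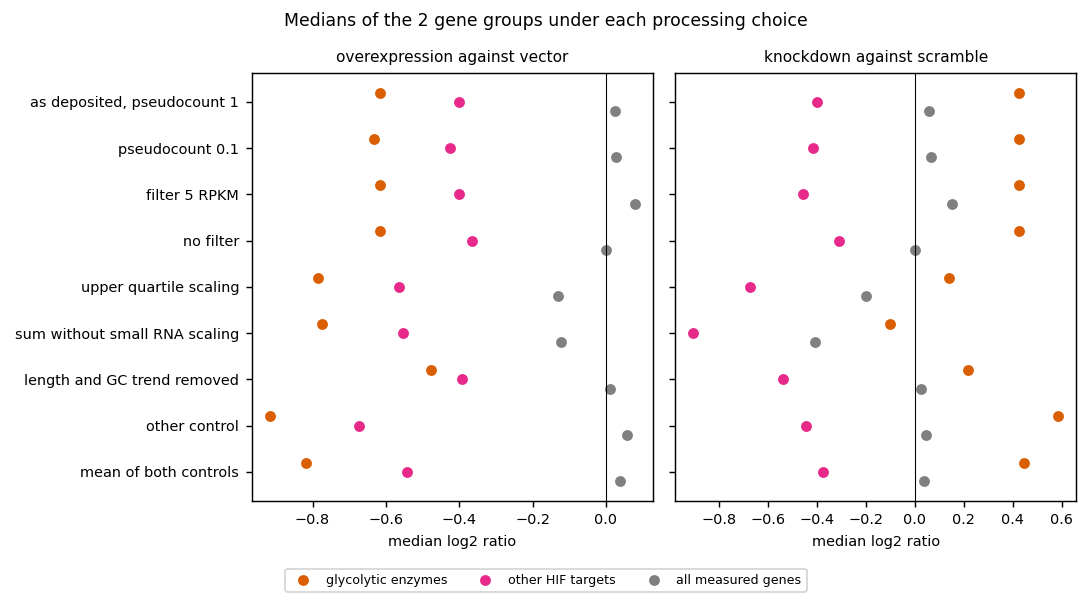
Median log2 ratio (x axis) of the 16 glycolytic enzymes, the other HIF targets and all measured genes under each processing choice, for overexpression over vector (left) and knockdown over scramble (right). The enzyme median stays below 0 on the left under all choices shown, while on the right it passes from 0.42 to -0.10 with scaling to the sum without small RNA genes.

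Genes around the set were counted from lists of the same pathways. The shares of all genes to read these counts against are 10.6% higher and 7.28% lower in the overexpression pair and 12.4% higher and 8.52% lower in the knockdown pair. Of 17 measured other isozymes and carriers, 1 was higher and 4 lower in the overexpression pair, and 1 higher and 2 lower in the knockdown pair, with medians of -0.29 and -0.40. HKDC1, a further hexokinase family member, was at 7.71 RPKM (vector), 62.5 (overexpression), 10.7 (scramble) and 8.96 (knockdown), with a log2 ratio of 2.87 in the overexpression pair. PDK4, a relative of PDK1, was at 9.60, 0.631, 3.55 and 1.25 RPKM, with -2.70 in the overexpression and -1.02 in the knockdown pair. Its controls too were apart, at -1.22. The lactate and pyruvate carrier SLC16A7 had -1.52 and the sugar carrier SLC2A6 1.14 in the knockdown pair. With the trend on length and GC content removed, the knockdown ratios of PDK4, SLC16A7 and SLC2A6 were -0.75, -0.76 and 0.78, all within 2-fold.

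Of 12 measured HIF pathway regulators, 0 were higher and 0 lower in the overexpression pair, where 1 library on each side allows no test. In the knockdown pair 1 was higher, RBX1 of the ubiquitin ligase that degrades HIF alpha (log2 ratio 1.20), and 1 lower, the coactivator EP300 (-1.20). Of 27 further HIF targets, 5 were higher and 1 lower in the overexpression pair, where 10.6% and 7.28% of all genes were. In the knockdown pair 2 of them were higher and 2 lower, where 12.4% and 8.52% of all genes were. Medians of these targets were 0.05 and -0.24. The secreted stanniocalcin STC2 was at 1.96, 33.4, 2.49 and 4.27 RPKM, so the overexpression library stood out. KDM3A, a histone demethylase, had -1.20 and the heme oxygenase HMOX1 1.43 in the knockdown pair. With the trend removed EP300 had -0.77, KDM3A -0.59 and HMOX1 0.87 there, all within 2-fold, and RBX1 had 1.06. These further targets thus did not share the side of the 7 HIF targets of the set in the overexpression pair, where 15 of 27 were above 0.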

How the data were processed

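The deposited values are RPKM for 23284 gene symbols in each of 4 libraries, per the file headers. Per the submitters' processing notes, Cufflinks 2.2.0, SAMtools 1.1, Bowtie2 2.2.4 and TopHat2 2.0.13 were used with the hg19 build. The strand setting of the counting is not given in the sources used here, nor are the gene models. Groups came from the sample titles. The 34 genes and the pathway lists were chosen with earlier results of these data known. Ratios were log2((RPKM + 1)/(RPKM + 1)) for genes at 1 RPKM or more in either library, with a threshold of 2-fold, and no test was possible with 1 library a group. Named genes are all 34 members, PKM, MAGEA1 and, per pathway list and pair, the 2 genes with the largest log2 ratios among those past 2-fold at 5 RPKM or more, of which some are not reported here.

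Reads were estimated from whole steps in low RPKM values of 2285 genes with 1 transcript: 63.2% to 70.5% of the values used lay within 0.1 read of a whole number, against 20% for uniform values. They assume the longest GENCODE 29 transcript minus 200 nt, and intervals cover counting error only. Estimated depths were 24530000 (vector), 12640000 (overexpression), 16350000 (scramble) and 19630000 (knockdown), so that 1 RPKM in a 2000 nt transcript stands for 44.2, 22.8, 29.4 and 35.3 reads. The trend removed was a polynomial of degree 3 in log2 length and in GC content with their product. It was tested on simulated data that held a linear trend with log2 length only. Its GC content, product and curved terms were thus not tested. Length, GC content and promoters came from GRCh38 tables, matched by symbol (34 of 34 for length, 31 of 34 for promoters), and no coordinates were moved between builds. SLC2A3, SLC16A1 and NDRG1 had no promoter entry. Python 3.11.15, numpy 2.4.6, pandas 2.3.3, scipy 1.17.1 and matplotlib 3.10.9 were used. The alternatives tried were another pseudocount, other filters, scaling to the upper quartile or to the sum without small RNA genes, a 1.5-fold threshold, trend removal, the other control and the mean of both controls.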

Additional observations from a re-analysis of the deposited data

How the results depend on the processing

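Of 94 alternative values for counts and medians, 72 stayed near the reported value, 21 moved and 1 reversed. Of 506 alternative values for log2 ratios of members, 371 stayed near and 135 moved. A change of filter cannot alter a gene's own ratio, so those values were bound to stay. A change of sign counted as reversed only where the reported ratio was 2-fold or more. SLC16A3, for one, counted as moved when its overexpression ratio went from 0.52 to -0.43 with the scramble library as control. Of 44 isozyme shares taken from estimated reads instead of RPKM, 1 stayed near and 43 moved, with a tolerance set by the counting interval. Estimated reads weight each gene by its transcript length, so these shares differ by construction where isozymes differ in length. Scaling mattered most in the knockdown pair: it shifted the median of all genes by -0.26 (upper quartile) and -0.47 (sum without small RNA genes), and by -0.16 and -0.15 in the overexpression pair. The share of higher genes among those past 2-fold went from 59.4% to 34.4% and 20.3% in the knockdown pair, and from 59.3% to 45.4% and 45.9% in the overexpression pair, and the count of all genes lower in the knockdown pair from 1156 to 1970 and 2853, with 1032 and 727 higher against 1688. With these scalings, the knockdown enzyme median was 0.14 and -0.10 and that of HIF targets -0.67 and -0.90, with 0 members higher under either and 6 and 7 lower. Trend removal gave an enzyme median of 0.22 there and 0 members higher, and 766 genes higher and 630 lower in all. In the controls it gave 49 genes higher and 23 lower, against 119 and 238, and a pseudocount of 0.1 gave 240 higher. With the scramble library as control, the overexpression enzyme median was -0.92 and that of HIF targets -0.67. Against that control 7 members were lower, where 1234 of all 13520 genes were. With the mean of both controls the enzyme median was -0.82. With the vector library as control 3 members were higher in the knockdown library, where 1921 of all 13624 genes were. A 1.5-fold threshold gave 4 members higher and 11 lower in the overexpression pair, 7 and 7 in the knockdown pair and 2 higher in the controls, where a pseudocount of 0.1 gave 1. Shares of all genes at 1.5-fold were not counted, so the 1.5-fold counts have no background to be read against. With a 5 RPKM filter the HIF target median between controls was 0.16. The cause of these shifts was not tested. No paired analysis was possible because each group holds 1 library. CA9 in the overexpression library rests on an estimated 3 reads.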

Other observations

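Enzymes that take pyruvate or glucose phosphate elsewhere were also listed. Of 27 measured genes of pyruvate entry and the citric acid cycle, 1 was at least 2-fold higher and 1 lower in the overexpression pair, where 10.6% of all genes were higher and 7.28% lower, with a median log2 ratio of -0.02. FH, the fumarate hydratase, was at 48.1 RPKM (vector), 101 (overexpression), 40.5 (scramble) and 52.1 (knockdown), with an overexpression ratio of 1.05. IDH2, a mitochondrial isocitrate dehydrogenase, was at 13.5, 6.19, 17.4 and 17.6 RPKM, a log2 ratio of -1.01. With the trend on length and GC content removed these ratios were 0.97 and -0.85, both within 2-fold. In the knockdown pair 2 were higher and 0 lower, where 12.4% of all genes were higher and 8.52% lower, with a median of 0.18. Those higher were pyruvate carboxylase PC (log2 ratio 1.18) and IDH3G (1.07, or 0.39 with the trend removed).

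The pentose phosphate pathway draws on glucose phosphate for NADPH and ribose. Of its 8 genes, 0 were 2-fold higher and 0 lower in the overexpression pair, while 3 were higher and 0 lower in the knockdown pair, with a median of 0.56. Over all genes, 10.6% were higher and 7.28% lower in the overexpression pair, and 12.4% and 8.52% in the knockdown pair as deposited. The number higher in the knockdown pair went from 1688 to 727 with scaling to the sum without small RNA genes. TALDO1, the transaldolase, was at 106 RPKM (vector), 85.3 (overexpression), 136 (scramble) and 359 (knockdown). It was highest in the knockdown library, with a log2 ratio of 1.39, and of 0.71 with the trend removed.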
